A study of Mus musculus with 18 samples.

Results

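The testis of mice labelled Plin1 knockout was compared between day 21 and day 40 after birth. Each age had 3 Agilent arrays, so the comparison rests on 6 of the 18 arrays of the series. The members were the 3 knockout-labelled arrays of each age, chosen by the age and genotype given in their labels and by no measured value. All 6 hold total RNA of whole testis from animals labelled Plin1 knockout, which differ by label in age alone. The labels place day 21 in a meiosis phase and day 40 in puberty. The other 12 arrays were testis labelled wild type at days 21, 40 and 60 and testis labelled knockout at day 60, again 3 arrays each. The sources used here do not give strain background, the design of the knockout allele or the number of animals behind an array, so the tests measure the spread between arrays, which may be technical.

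Spermatogenesis runs in the mouse as a first wave after birth. Spermatogonia divide by mitosis, enter meiosis as spermatocytes, and give rise to round spermatids, which then elongate, build a tail and acrosome, and replace histones with transition proteins and then protamines. Between the testis tubules, fetal and immature Leydig cells are followed by adult Leydig cells, the main source of testosterone. Plin1 encodes perilipin 1, a coat protein of lipid droplets that restrains lipolysis in adipocytes and is also found in steroid-making cells. In whole tissue, fewer cells of a type and less RNA per cell cannot be told apart.

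Every array had 43379 spots that were not controls, of which 84.05 to 90.63 percent were well above background on these 6 arrays. No spot was saturated. Levels are on a log2 scale on which 0 marks the 75th percentile of the spots on an array, and 1 unit is a doubling. Correlation across probes was 0.992 to 0.995 between the day 40 arrays and 0.967 to 0.989 between the day 21 arrays. Replicate 2 of day 21 stood apart: on the main axis of variation, which held 67.3 percent of the variance among the 6 arrays, it scored -162.1, against -49.7 and -16.4 for the other day 21 arrays and 72.5 to 81.8 for day 40. Its median signal, 526.9, was the highest of the 18 arrays. No slide held arrays of both ages, so slide and age cannot be told apart by a slide term. Slide also differed in part between the genotype labels at each of these ages. Many counts and calls are also given without replicate 2.

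The targeted gene came first. The Plin1 probe, well above background on all 6 arrays, measured 0.02, -0.05 and -0.10 at day 21, then -0.22, -0.11 and 0.05 at day 40. The groups overlapped, and the difference of -0.05 (SE 0.24) did not pass (adjusted p = 0.863). The probe thus reads a transcript in arrays labelled knockout. The sources used here do not say which part of the gene the allele removes, so this probe does not settle the label.

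Differences were tested over 35641 probes with limma. At an adjusted p of 0.05, 17623 probes differed between the ages, 4259 higher and 13364 lower at day 40. Over 17074 named genes, each read on its brightest probe, 2503 (14.7 percent) were called higher and 5768 (33.8 percent) lower. The scale bears on that split. The median of all genes fell by 0.23 between the ages under scaling to the 75th percentile and by 0.08 under scaling to the array median, where 2945 genes were called higher and 2258 lower. Of all probes called, 24.2 percent were higher under the 75th percentile, 33.8 percent under quantile normalization and 44.4 percent under median scaling. Small falls are therefore read against the shift of -0.23. The sign of a list median near 0 also turned with the scale: the steroid synthesis, pachytene, histone, macrophage, cholesterol and both fatty acid lists were above 0 with median scaling, and with quantile normalization the cholesterol and epididymis lists were above 0 and the retrocopy list below 0.

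The strong changes ran mainly upward. At least 2-fold, 1342 genes rose and 768 fell. At least 4-fold, 560 rose and 139 fell. All 560 strong rises were also called with quantile normalization, median scaling and normexp background correction with limited local background, 555 without replicate 2 of day 21, 554 when only the arrays compared were fitted and 498 with the normexp correction as planned. Of the 768 falls, the number still called at any size was 638 with median scaling, 575 with limited normexp and 490 without that array. It was 385 with quantile normalization, 285 when only the arrays compared were fitted and 19 with the normexp correction as planned. In the same order, the number still called at a fall of at least 2-fold was 494, 108, 302, 234, 285 and 16. In 80.9 percent of those 768 genes replicate 2 was the highest of the day 21 arrays, and their median level was -4.98 at day 21, against -0.59 for the 1342 genes that rose at least 2-fold.

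**Figure D1:**
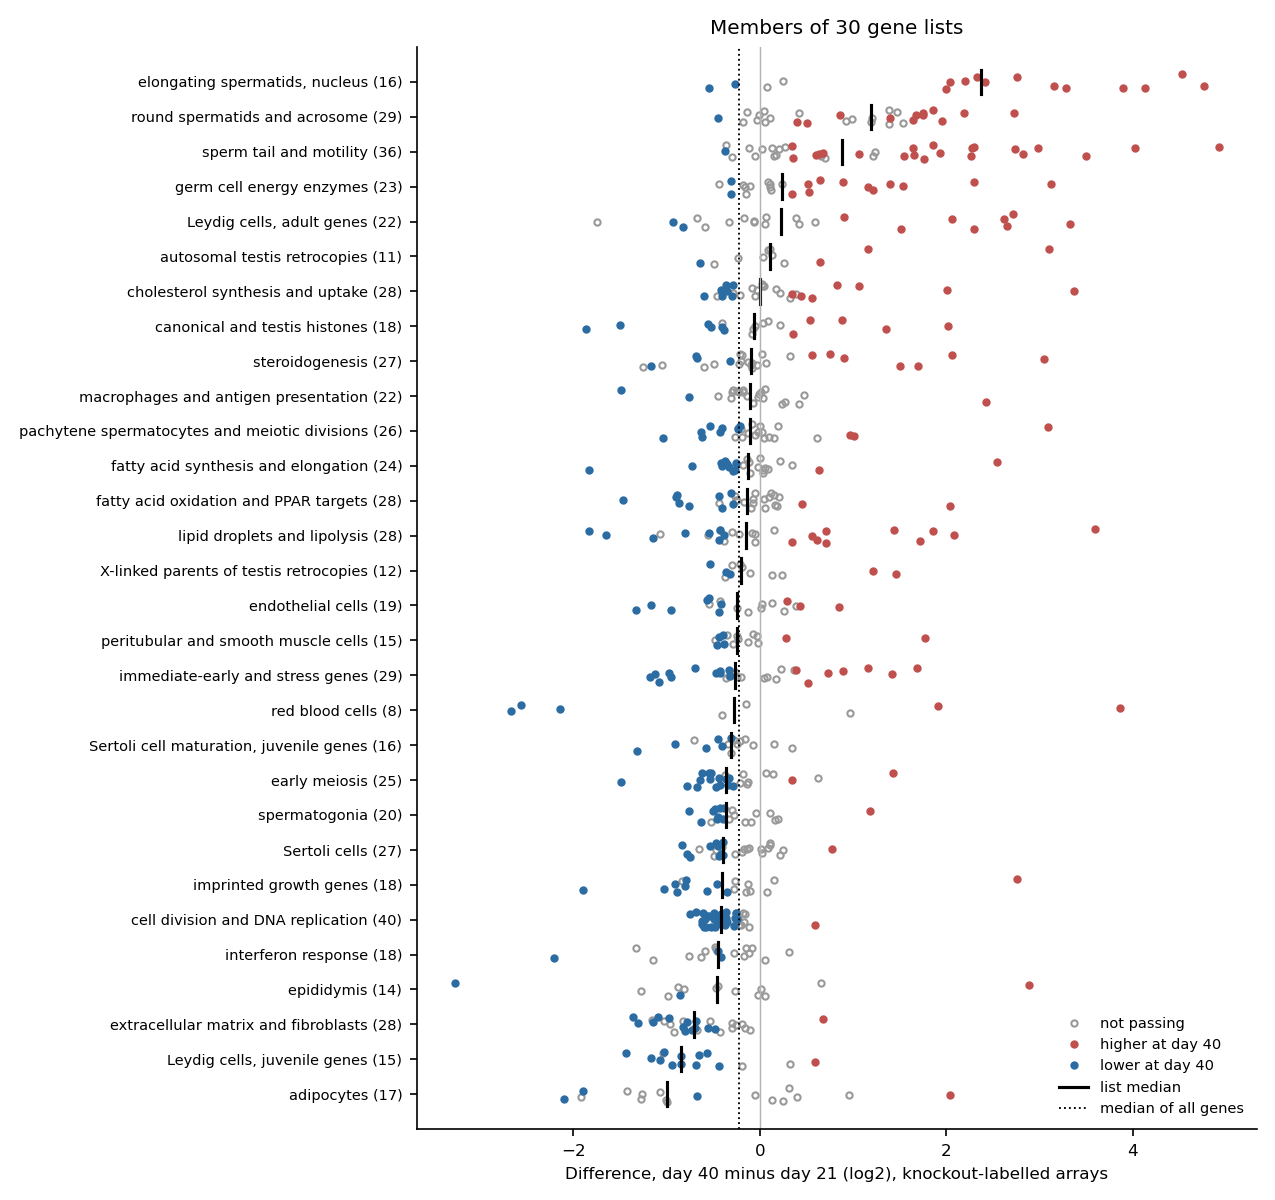
Difference between day 40 and day 21 on the knockout-labelled arrays (x axis, log2) for each tested member of 30 gene lists (y axis, number of tested members in brackets); red points were higher and blue points lower at an adjusted p of 0.05, open grey points did not pass, bars are list medians and the dotted line is the median of all genes, -0.23. The spermatid lists lie to the right, with medians of 2.37, 1.19 and 0.88, and the juvenile Leydig, matrix and adipocyte lists lie farthest left.

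The 12 genes with the largest rise, among those measured above background on all 6 arrays, gained between 4.93 and 5.43 on the log2 scale. Nudt16l2 measured -2.02, -2.17 and -1.56 at day 21, then 3.24, 3.78 and 3.54 at day 40, a rise of 5.43 (SE 0.42, adjusted p = 6.2e-07), or 43.3-fold. The other 11 were Cstl1, Ttc24, Oxct2a, 1700009J07Rik, Tlcd4, Klk1b9, 1700012A03Rik, 1700008P02Rik, Cyp2a12, Prkar2a and Paqr5. Oxct2a, a testis form of the ketone body enzyme succinyl-CoA transferase, rose from 0.19, -1.33 and 0.58 to 4.91, 5.21 and 4.92. Prkar2a, a regulatory subunit of protein kinase A, which acts in sperm motility, rose by 4.94 (SE 0.44) on its brightest probe and by 2.88 as the mean over its probes. For Tlcd4 these values were 5.12 and 2.33, and for Paqr5 4.93 and 2.70. Klk1b9, a glandular kallikrein, rose by 5.04, but it belongs to a family of near-identical genes whose probes may read each other. No array of one age overlapped the other in any of these 12 genes, but they were picked for their large rise, so this adds no support. Over all 17074 genes, the day 40 arrays lay wholly above those of day 21 in 3246 and wholly below in 7191.

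The nuclear proteins of elongating spermatids showed the largest shift of any list. Of 20 listed genes, 16 were tested, 12 rose and 2 fell, with a list median of 2.37 against -0.23 for all genes. The share that rose was 75 percent, against 14.7 percent of all genes. Without replicate 2 of day 21 the counts were 10 and 1, and the median 1.96. The share that rose was then 62.5 percent, against 13.7 percent of all genes. Tnp2, a transition protein that displaces histones, measured 1.54, -0.01 and 1.91 at day 21, then 5.79, 6.11 and 5.83 at day 40, a rise of 4.76 (SE 0.53, adjusted p = 2.1e-05). Tnp1, the other transition protein, went from 3.92, 2.64 and 4.43 to 7.55, 7.65 and 7.47, a rise of 3.90 (SE 0.60, adjusted p = 0.00037). In both genes replicate 2 was the lowest day 21 array, and all day 40 arrays lay above all day 21 arrays, as in 3246 of all 17074 genes.

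The protamines pack the sperm genome after the transition proteins. Prm1 measured 5.95, 4.55 and 6.25 at day 21, then 7.77, 7.73 and 7.84 at day 40, a rise of 2.20 (SE 0.65, adjusted p = 0.0148). Prm2 measured 5.69, 4.16 and 5.998, then 7.66, 7.71 and 7.74, a rise of 2.42 (SE 0.68, adjusted p = 0.0111). The groups did not overlap, yet both calls were lost without replicate 2 of day 21, at rises of 1.68 (adjusted p = 0.0673) and 1.86 (adjusted p = 0.0511). Both genes were thus bright at day 21 and bright and tightly grouped at day 40.

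Other spermatid nuclear genes followed. Spem1, needed for shaping the sperm head and neck, rose by 4.53 (SE 0.58). Tssk6, a testis kinase needed for the histone exchange, rose by 4.13 (SE 0.23) from -0.40, -1.24 and -0.25 to 3.30, 3.76 and 3.45. H1f7, a linker histone of spermatids, rose by 3.28 (SE 0.57). The 2 members that fell are known from earlier cells: Rnf8, a ubiquitin ligase of the DNA damage response, fell by 0.54 (SE 0.09), and Brdt, a bromodomain protein that begins in spermatocytes, fell by 0.27 (SE 0.10), close to the shift of all genes. The call for Brdt was lost without replicate 2 of day 21, at -0.16 (adjusted p = 0.213).

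**Figure D2:**
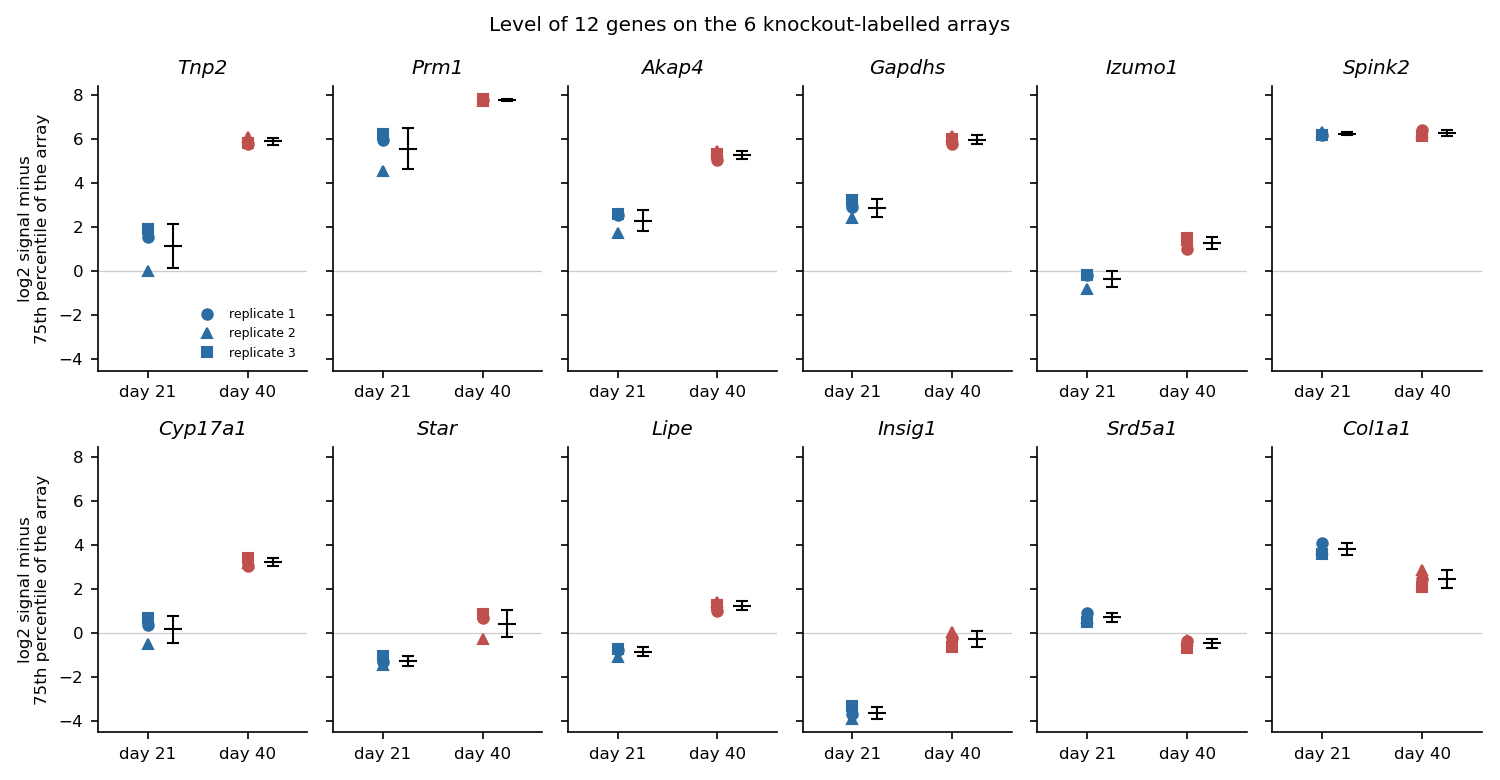
Level of 12 genes (y axis, log2, with 0 at the 75th percentile of each array) on the 3 knockout-labelled arrays of day 21 (blue) and day 40 (red); symbols mark replicates, and bars give the mean with the SD. Tnp2 goes from -0.01 to 1.91 at day 21 to above 5.7 at day 40, Spink2 stays between 6.15 and 6.41, and Col1a1 is lower at day 40.

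The stretches before the start sites of the transition protein and protamine genes are shown because these genes moved together, followed by those of Izumo1 and Spag4, which hold the cAMP response element sought. They come from RefSeq on GRCm38.p6, read 5′ to 3′ on the strand of the gene and ending at the last base before its start. Capitals mark matches on either strand to TGACGTCA (cAMP response element), CAAGGTCA (steroidogenic factor 1 site), GGGCGG (GC box) or TATAAA.
Prm1, chr16:10796824-10796973, minus strand: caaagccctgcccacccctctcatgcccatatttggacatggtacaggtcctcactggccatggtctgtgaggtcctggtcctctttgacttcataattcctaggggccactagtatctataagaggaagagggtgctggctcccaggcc
Prm2, chr16:10792106-10792355, minus strand: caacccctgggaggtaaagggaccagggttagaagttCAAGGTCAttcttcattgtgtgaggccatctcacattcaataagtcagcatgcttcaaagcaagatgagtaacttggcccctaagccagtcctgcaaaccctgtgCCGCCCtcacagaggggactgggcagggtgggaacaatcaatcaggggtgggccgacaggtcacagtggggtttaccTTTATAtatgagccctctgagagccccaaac
Tnp1, chr1:73015900-73016049, minus strand: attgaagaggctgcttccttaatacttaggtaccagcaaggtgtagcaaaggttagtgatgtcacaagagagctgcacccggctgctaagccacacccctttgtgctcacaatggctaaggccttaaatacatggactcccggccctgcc
Tnp2, chr16:10788656-10788805, minus strand: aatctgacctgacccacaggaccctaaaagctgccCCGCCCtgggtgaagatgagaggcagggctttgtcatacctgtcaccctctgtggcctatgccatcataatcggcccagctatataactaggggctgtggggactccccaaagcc
Izumo1, chr7:45621661-45621810, plus strand: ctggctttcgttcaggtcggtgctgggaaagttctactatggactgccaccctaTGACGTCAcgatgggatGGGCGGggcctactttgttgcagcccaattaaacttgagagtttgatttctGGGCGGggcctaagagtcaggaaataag
Spag4, chr2:156065063-156065212, plus strand: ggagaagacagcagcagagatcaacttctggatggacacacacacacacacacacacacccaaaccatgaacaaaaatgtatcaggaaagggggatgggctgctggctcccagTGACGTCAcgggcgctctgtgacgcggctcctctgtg

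Prm1, Prm2 and Tnp2 lie close together on chromosome 16. Prm2 holds a steroidogenic factor 1 match starting 213 bases before the start, a GC box match at 108 and a TATAAA match on the other strand at 31. Prm1 and Tnp1 hold none of the 4 motifs in the stretch shown, and Tnp2 holds a GC box match at 115. The stretch shown has 250 bases for Prm2 and 150 for each other gene. The Prm2 match at 213 thus lies farther out than anything shown of the others, and the stretches are not like for like. The cAMP response element starts 96 bases before the start in Izumo1 and 37 in Spag4. A match is a description of letters, not a site.

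Over the promoter table, windows from 250 bases before to 50 after the start were available for 458 of the 560 genes that rose at least 4-fold, 99 of the 139 that fell as far and 13571 of all 17074. The cAMP response element stood in 3.75 percent of the 614 windows of risen genes, 0.862 percent of the 116 windows of fallen genes and 2.56 percent of the 16958 windows of all tested genes. For the steroidogenic factor 1 site the shares were 2.77, 3.45 and 1.19 percent, and for the GC box 38.3, 18.1 and 53.4 percent. TATAAA, on either strand, stood in 8.47 percent of the risen, 29.3 percent of the fallen and 10.1 percent of all windows. The windows hold few of the longer motifs, 23 and 17 in the risen genes, and no test was made.

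Genes of the sperm tail and of motility rose widely. Of 40 listed, 36 were tested, 21 rose and 1 fell, with a median of 0.88. The share that rose was 58.3 percent, against 14.7 percent of all genes. Without replicate 2 of day 21, 15 rose and 0 fell, with a median of 0.86. The share that rose was then 41.7 percent, against 13.7 percent of all genes. Fscn3, a testis form of the actin bundler fascin, measured -0.01, -0.98 and 0.48 at day 21, then 4.67, 4.99 and 4.59 at day 40, a rise of 4.92 (SE 0.37, adjusted p = 4.9e-07). Akap4, the main scaffold of the fibrous sheath, rose from 2.55, 1.75 and 2.62 to 5.08, 5.48 and 5.32, by 2.99 (SE 0.61, adjusted p = 0.00209). In both genes the ages lay far apart, with replicate 2 lowest at day 21.

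Spata18 rose by 3.50 (SE 0.39), Spata3 by 4.02 (SE 0.56), the outer dense fibre gene Odf1 by 2.74 (SE 0.58), and Smcp, of the mitochondrial capsule, by 2.28 (SE 0.56). The sperm calcium channel subunits Catsper1 and Catsper3 rose by 1.64 and 1.55, calls that were lost without replicate 2 of day 21 (adjusted p = 0.0848 and 0.111). Adcy10, the soluble adenylyl cyclase that bicarbonate activates, rose by 1.07 (SE 0.16). The axonemal genes Tekt1, Spag16, Dnah8 and Dnah17 did not pass, with differences of 0.27, 0.20, 0.16 and -0.36. Ccdc38, the member that fell, lost 0.38 (SE 0.15), and this call was lost without replicate 2 of day 21 (adjusted p = 0.236).

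Of 30 listed genes of round spermatids and the acrosome, 29 were tested, 12 rose, 1 fell and 16 did not pass, with a median of 1.19. The difference was above 0 in 24 of the 29. The share that rose was 41.4 percent, against 14.7 percent of all genes. Without replicate 2 of day 21, 7 rose (24.1 percent, against 13.7 percent of all genes) and 0 fell. With quantile normalization 9 rose and 4 fell. Fhl5, a partner of the spermatid activator CREM, rose by 2.73 (SE 0.57) from 0.79, 0.22 and 1.15 to 3.20, 3.71 and 3.43. Tssk2, a testis kinase with a near-identical relative in Tssk1, rose by 2.19 (SE 0.55). Actl7a, related to actin and found in the acrosome, rose by 1.96 (SE 0.52). Crem itself rose by 0.51 (SE 0.15, adjusted p = 0.0166).

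Izumo1, the sperm protein that binds the egg, measured -0.15, -0.79 and -0.17 at day 21, then 0.99, 1.42 and 1.49 at day 40. Its rise of 1.67 (SE 0.61, adjusted p = 0.0362) did not pass without replicate 2 of day 21 (1.46, adjusted p = 0.108). Spag4, a protein of the nuclear envelope and tail, rose by 1.86 (SE 0.52, adjusted p = 0.0113). By contrast, Spink2, an inhibitor of the acrosomal protease acrosin, measured 6.22, 6.36 and 6.21 at day 21, then 6.41, 6.35 and 6.15 at day 40. Its difference was 0.04 (SE 0.12), and Spata16, Dpy19l2 and Zpbp2, all of acrosome formation, differed by -0.01, -0.03 and -0.18, none passing. Gopc, a Golgi protein of acrosome formation, fell by 0.45 (SE 0.13), a call lost without replicate 2 of day 21 (adjusted p = 0.0649).

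Enzymes that germ cells use for energy rose in part. Of 25 listed, 23 were tested, 11 rose and 2 fell, with a median of 0.24. The share that rose was 47.8 percent, against 14.7 percent of all genes. Without replicate 2 of day 21, 9 rose (39.1 percent, against 13.7 percent of all genes) and 1 fell. Gapdhs, the sperm form of glyceraldehyde phosphate dehydrogenase, measured 2.92, 2.44 and 3.25, then 5.78, 6.16 and 6.04, a rise of 3.12 (SE 0.57, adjusted p = 0.0011). Hk1, hexokinase, rose by 1.54 (SE 0.22), the lactate and pyruvate carrier Slc16a7 by 1.40 (SE 0.18) and Tpi1 by 0.89 (SE 0.15). Ldhc, the testis lactate dehydrogenase, was at 7.41, 7.30 and 7.38 at day 21, then 7.43, 7.54 and 7.47 at day 40, and its difference of 0.12 did not pass (adjusted p = 0.26). Cyct, the testis cytochrome c, and Slc2a3, a glucose carrier, fell by 0.30 each, near the shift of all genes, and the call for Slc2a3 was lost without replicate 2 of day 21 (adjusted p = 0.0541). With quantile normalization the list gave 9 rises and 6 falls.

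Several autosomal retrocopies stand in for X-linked genes that are silenced in meiosis. Of 13 listed retrocopies 11 were tested, 3 rose and 1 fell, and of 12 X-linked parents, all tested, 2 rose and 3 fell. The shares were 27.3 and 9.09 percent of retrocopies and 16.7 and 25 percent of parents. Over all genes 14.7 percent rose and 33.8 percent fell. Without replicate 2 of day 21, 3 retrocopies rose and 1 fell, and 2 parents rose and 1 fell. Pgk2 rose by 1.16 (SE 0.22, adjusted p = 0.0012), from 5.32, 5.28 and 5.25 to 6.39, 6.54 and 6.41, while its parent Pgk1 differed by -0.11 (adjusted p = 0.41). Ubl4b rose by 3.099 (SE 0.57) while Ubl4a differed by -0.30 (adjusted p = 0.26). The pair of Cstf2t and Cstf2 went the other way. Cstf2t fell by 0.64 (SE 0.08) and the X-linked Cstf2 rose by 1.21 (SE 0.32) on its brightest probe, a call lost on the mean over its probes (0.28, adjusted p = 0.0834). For Pdha2, Rpl39l, Rbmxl2, Cetn1 and Gk2 the difference lay between 0.03 and 0.26 and did not pass. Gk, an X-linked glycerol kinase, rose by 1.46 on its brightest probe, but the mean over its 3 probes was -0.11 (adjusted p = 0.598). Over all 609 tested genes of the X chromosome, 10.5 percent were called higher and 37.6 percent lower, against 14.7 and 33.8 percent of all genes. On single autosomes the shares ran from 12.7 to 17.1 percent higher and from 30.4 to 37.2 percent lower. The cause of the small difference was not tested.

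Of 29 listed genes of early meiosis, 25 were tested, 2 rose and 15 fell (60 percent, against 33.8 percent of all genes), with a median of -0.36. Without replicate 2 of day 21, where 22.5 percent of all genes fell, the counts were 1 and 13. With median scaling, where 13.2 percent did, they were 3 and 7. Meiob, which acts in meiotic recombination, measured 3.72, 3.86 and 3.57 at day 21, then 3.22, 2.95 and 3.11 at day 40, a fall of 0.62 (SE 0.12, adjusted p = 0.0014). Dmc1, the recombinase of meiosis, fell by 0.64 (SE 0.14). Syce2, of the synaptonemal complex, went the other way, from 3.79, 3.73 and 3.98 to 5.05, 5.40 and 5.32, a rise of 1.43 (SE 0.10, adjusted p = 3.6e-07).

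Of 26 listed spermatogonial genes, 20 were tested, 1 rose and 9 fell, with a median of -0.36. The share that fell was 45 percent against 33.8 percent of all genes, and 30 percent against 22.5 percent without replicate 2 of day 21, when 6 fell. With median scaling 1 rose and 1 fell (5 percent, against 13.2 percent of all genes), so the larger share of falls did not hold there. Foxo1, a transcription factor of stem cell maintenance, fell by 0.50 (SE 0.10), and Dmrt1 by 0.45 (SE 0.12). Lhx1, another stem cell factor, rose by 1.19 (SE 0.21). Among 26 genes of pachytene and the meiotic divisions, all tested, 3 rose and 8 fell, with a median of -0.10. The 8 are 30.8 percent, near the 33.8 percent of all genes, and 5 fell without replicate 2 of day 21. Piwil1, the MIWI protein that binds piRNAs, measured 2.53, 2.28 and 2.58, then 1.03, 1.25 and 1.999, a fall of 1.04 (SE 0.31). Calr3, a testis calreticulin, rose by 3.09 (SE 0.39), and Cdc25c, a phosphatase of the meiotic division, by 0.96 (SE 0.18). With quantile normalization 14 members of the pachytene list fell (53.8 percent, against 32.6 percent of all genes). The nearness of this list to all genes thus depended on the scaling.

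Of 41 listed genes of DNA replication and cell division, 40 were tested, with a median of -0.41. Of these, 1 rose and 30 fell (75 percent, against 33.8 percent of all genes). Without replicate 2 of day 21, 19 fell (47.5 percent, against 22.5 percent of all genes), and with median scaling 15 (37.5 percent, against 13.2 percent). Tyms, thymidylate synthase, measured 0.31, 0.44 and 0.15 at day 21, then -0.37, -0.45 and -0.51 at day 40, a fall of 0.74 (SE 0.13, adjusted p = 0.00068). Cdk1, Mcm5 and Dnmt1 fell by 0.62, 0.60 and 0.59, Cdk1 by 1.40 on the mean over its probes. The exception, Foxm1, a transcription factor of the cell cycle, rose by 0.60 (SE 0.18). Of 19 listed histone genes 18 were tested, 5 rose and 6 fell, 33.3 percent, near the share of all genes. Without replicate 2 of day 21, 3 rose and 6 fell, when 22.5 percent of all genes fell. H4c1 rose by 1.35 (SE 0.27) and H3c1 by 2.01 (SE 0.52), whereas H2ax, which marks meiotic DNA breaks, fell by 0.56 (SE 0.10).

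Of 28 listed genes of steroid synthesis, 27 were tested, 7 rose and 4 fell, with a median of -0.10. These are 25.9 and 14.8 percent, against 14.7 and 33.8 percent of all genes. Without replicate 2 of day 21, 6 rose and 3 fell. Cyp17a1, which makes androgen precursors from progestins, measured 0.34, -0.53 and 0.68 at day 21, then 3.06, 3.16 and 3.41 at day 40, a rise of 3.05 (SE 0.32, adjusted p = 1.1e-05), or 8.26-fold. Star, which delivers cholesterol to the mitochondrion, measured -1.31, -1.48 and -1.04, then 0.66, -0.27 and 0.85, a rise of 1.69 (SE 0.30, adjusted p = 0.00099). Cyp11a1, the side-chain cleavage enzyme, rose by 1.51 (SE 0.28). All day 40 values of these 3 genes lay above all day 21 values, as in 3246 of all 17074 genes.

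Hsd17b3, which makes testosterone, went from -2.90, -3.97 and -2.62 to -1.66, -1.34 and -0.31, a rise of 2.06 (SE 0.43, adjusted p = 0.0022). Hsd3b6, the form of adult Leydig cells, rose by 0.90 (SE 0.23), while Hsd3b1 differed by -0.19 and did not pass (adjusted p = 0.426). Scarb1, the receptor for cholesterol from high-density lipoprotein, rose by 0.56 (SE 0.14). Srd5a1, the 5-alpha-reductase of immature Leydig cells, fell from 0.92, 0.68 and 0.49 to -0.39, -0.31 and -0.70, by 1.17 (SE 0.16, adjusted p = 0.00011), and Akr1c14, which acts after it, fell by 0.68 (SE 0.17). The receptor gene Lhcgr and the regulator Nr5a1 differed by 0.07 and -0.13, neither passing. Lhcgr was well above background on 2 of the 3 day 21 arrays.

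Of 23 listed genes of adult Leydig cells, 22 were tested, 8 rose and 2 fell. The counts were the same without replicate 2 of day 21 and with median and quantile scaling. The share that rose was 36.4 percent, against 14.7 percent of all genes. Of 16 listed genes of juvenile Leydig cells, 15 were tested, 1 rose and 11 fell, with a median of -0.84. The share that fell was 73.3 percent, against 33.8 percent of all genes. Without replicate 2 of day 21, 8 fell (53.3 percent, against 22.5 percent of all genes), with a median of -0.60. Ptgds, a prostaglandin D synthase, measured -0.44, -0.52 and 0.66, then 1.91, 2.26 and 2.40, a rise of 2.29 (SE 0.25). Sult1e1, an estrogen sulfotransferase, rose by 2.62 (SE 0.52). The kallikreins Klk1b27, Klk1b21 and Klk1b24 rose by 3.33, 2.72 and 2.65, with the same limit on near-identical genes as for Klk1b9. Among the juvenile genes Tcf21, a factor of stromal progenitors, fell by 1.07 (SE 0.17), and Pdgfra by 0.84 (SE 0.17). Igf1 rose by 0.60 on its brightest probe, against -0.12 for the mean of its probes (adjusted p = 0.583).

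Cholesterol genes showed no common direction. All 28 listed were tested, 7 rose and 7 fell, with a median near 0. Each is 25 percent, against 14.7 percent higher and 33.8 percent lower over all genes. Without replicate 2 of day 21, 6 rose and 4 fell, and with median scaling 7 rose and 0 fell. Insig1, the membrane brake on cholesterol synthesis, measured -3.71, -3.92 and -3.35, then -0.25, 0.04 and -0.66, a rise of 3.37 (SE 0.23, adjusted p = 1.8e-07). Cyp51, which is strongly expressed in spermatids, rose by 2.01 (SE 0.19) and Pmvk, a kinase of the mevalonate pathway, by 1.06 (SE 0.11). On the mean over their probes these rises were 1.52 for Insig1, 1.19 for Cyp51 and 0.57 for Pmvk. Soat1, which stores cholesterol as esters, fell by 0.60 (SE 0.15).

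Of 29 listed genes of lipid droplets and lipolysis, Plin1 among them, 28 were tested, with a median of -0.15. Of these, 10 rose and 8 fell (35.7 and 28.6 percent, against 14.7 and 33.8 percent of all genes). Without replicate 2 of day 21, 9 rose and 4 fell, and with median scaling 10 rose and 1 fell. Agpat2, an acyltransferase on the way to triglyceride, measured -1.77, -2.64 and -1.98, then 1.33, 1.68 and 1.40, a rise of 3.60 (SE 0.22, adjusted p = 6.3e-08). Lipe, hormone-sensitive lipase, which perilipin 1 controls in fat cells, rose from -0.76, -1.10 and -0.72 to 0.99, 1.40 and 1.27, by 2.08 (SE 0.14, adjusted p = 1.8e-07). Abhd5, the activator of triglyceride lipase that perilipin 1 holds back, rose by 1.72 (SE 0.13), or by 0.80 on the mean over its probes. In these 3 genes all day 40 values lay above all day 21 values, as in 3246 of all 17074 genes.

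Dgat2, which makes triglyceride, rose by 1.86 (SE 0.47) and Gpat3 by 1.44 (SE 0.53), a call lost without replicate 2 of day 21 at nearly the same size (1.41, adjusted p = 0.08). Among the perilipins Plin2 rose by 0.61 (SE 0.15) and Plin5 by 0.55 (SE 0.17), while Plin1, Plin3 and Plin4 differed by -0.05, -0.05 and -0.56 and did not pass. Hsd17b13, a droplet protein, fell by 1.83 (SE 0.69), but it measured -6.27, -2.66 and -6.33 at day 21, so replicate 2 set the difference, and the call was lost without it (-0.62, adjusted p = 0.0825). Pnpla3 fell by 1.64, a call that was also lost (adjusted p = 0.105), and its ages overlapped.

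Of 25 listed fatty acid synthesis genes, 24 were tested, 2 rose and 10 fell, with a median of -0.13. The share that fell was 41.7 percent against 33.8 percent of all genes, and 33.3 percent against 22.5 percent without replicate 2 of day 21, when 1 rose and 8 fell. With median scaling 3 rose and 2 fell (8.33 percent, against 13.2 percent of all genes), so the larger share of falls did not hold there. Acsl1, an acyl-CoA synthetase, rose by 2.55 (SE 0.49) from 3.03, 2.38 and 2.96 to 5.14, 5.56 and 5.32. Elovl7, an elongase, fell by 0.73 (SE 0.11). Fatty acid oxidation and PPAR target genes gave 2 rises and 9 falls in 28 tested of 29 listed. The share of falls was 32.1 percent, near that of all genes. With median scaling the counts were 3 and 3. Without replicate 2 of day 21 they were 1 and 9, when 22.5 percent of all genes fell. Fabp3, a fatty acid binding protein, rose by 2.04 (SE 0.26), and Ppargc1a, a coactivator of mitochondrial genes, fell by 0.76 (SE 0.15).

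Of 28 listed Sertoli cell genes, 27 were tested, 1 rose and 10 fell, with a median of -0.40. Of the 16 genes of juvenile Sertoli cells, all tested, 0 rose and 6 fell. The shares that fell, 37 and 37.5 percent, lie near the 33.8 percent of all genes. Without replicate 2 of day 21, 7 and 4 fell (25.9 and 25 percent, against 22.5 percent of all genes). With median scaling 3 and 4 fell (11.1 and 25 percent, against 13.2 percent of all genes). Amh, the hormone of immature Sertoli cells, measured -2.90, -2.66 and -3.00 at day 21, then -4.27, -4.32 and -3.91 at day 40, a fall of 1.32 (SE 0.14, adjusted p = 1.7e-05). Shbg, an androgen carrier, fell by 0.84 (SE 0.15), Gja1, a gap junction protein, by 0.75 (SE 0.15), and Fshr, the FSH receptor, by 0.42 (SE 0.11). Aqp8, a water channel, rose by 0.77 (SE 0.25), a call lost without replicate 2 of day 21 (adjusted p = 0.0742).

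Of 31 listed genes of the extracellular matrix and fibroblasts, 28 were tested, with a median of -0.71. Of these, 1 rose and 13 fell (46.4 percent, against 33.8 percent of all genes). Without replicate 2 of day 21, 11 fell (39.3 percent, against 22.5 percent of all genes), with a median of -0.69. Col1a1 measured 4.07, 3.79 and 3.57 at day 21, then 2.45, 2.84 and 2.06 at day 40, a fall of 1.36 (SE 0.50, adjusted p = 0.0355). That call was lost without replicate 2, at the same size (-1.37, adjusted p = 0.0729). Eln, elastin, fell by 1.30 (SE 0.21), and the basement membrane collagen Col4a1 by 0.82 (SE 0.13). Col5a1 rose by 0.68, whereas the mean of its probes differed by -0.13 (adjusted p = 0.635). In Col1a1 and Eln all day 40 values lay below all day 21 values, as in 7191 of all 17074 genes.

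Of 21 listed imprinted growth genes, 18 were tested, 1 rose and 9 fell, with a median of -0.41. The share that fell was 50 percent, against 33.8 percent of all genes. Without replicate 2 of day 21 the counts were the same. Igf2 fell from -0.09, 0.06 and -0.20 to -0.96, -0.94 and -1.07, by 0.91 (SE 0.15, adjusted p = 0.00051), Peg3 by 0.79 (SE 0.12) and Dlk1 by 0.89 (SE 0.19). The member that rose, Cdkn1c, an inhibitor of cell division, went from -0.16, -0.30 and -0.36 to 2.43, 2.71 and 2.30, by 2.75 (SE 0.13, adjusted p = 1.7e-08). Peritubular and smooth muscle genes gave 2 rises and 4 falls among 15, all tested. The share of falls was 26.7 percent, against 33.8 percent of all genes. Without replicate 2 of day 21 the counts were 1 and 4, a share of falls of 26.7 percent against 22.5 percent of all genes. With median scaling 2 rose and 0 fell, when 13.2 percent of all genes fell. Actg2, an enteric smooth muscle actin, rose by 1.77 (SE 0.15), while Acta2 rose by 0.28 on its brightest probe, with overlapping ages and a call lost without replicate 2 of day 21 (adjusted p = 0.134), and differed by -0.20 over its probes (adjusted p = 0.209).

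Markers of other cells that a dissected testis can carry were read beside these results. Of 21 listed adipocyte genes 17 were tested. Against 14.7 and 33.8 percent of all genes, 1 of these 17 rose and 3 fell (5.88 and 17.6 percent). Their mean level was -0.43, -2.45 and -0.90 on the day 21 arrays and -1.53, -0.94 and -3.00 on the day 40 arrays, so arrays of the same age differed more than the ages did, and the part of this in other lists was not tested. Aqp7, the member that rose (by 2.04), is also a water and glycerol channel of spermatids. Of 24 listed macrophage genes 22 were tested, and 1 rose and 2 fell (4.55 and 9.09 percent). The riser, Aif1 (by 2.42), is also known from spermatids. The mean level of that list was -1.18 to -0.92 at day 21 and -1.26 to -0.99 at day 40. Of 19 endothelial genes, all tested, 3 rose and 7 fell (36.8 percent, against 33.8 percent of all genes), Vwf by 0.85 upward and Eng by 0.55 downward. Without replicate 2 of day 21 these counts were the same, when 22.5 percent of all genes fell. With median scaling 4 rose and 4 fell (21.1 percent, against 13.2 percent of all genes).

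Of 19 listed epididymis genes 14 were tested. Against 14.7 and 33.8 percent of all genes, 1 of these 14 rose and 2 fell (7.14 and 14.3 percent). Their mean level was -4.72, -3.57 and -5.24 at day 21 and -4.998 to -4.86 at day 40. Replicate 2 of day 21 was thus the highest array. The part of this in other results was not tested. Cst8, which spermatids also make, rose by 2.88 (SE 0.41). Adam7 measured -7.22, -4.25 and -7.27 at day 21 and was not well above background on any day 40 array, a fall of at least 2.85-fold (adjusted p = 0.00508), or at least 1.43-fold without replicate 2 of day 21. Of 14 listed red blood cell genes 8 were tested. The globin genes Hba-a1 and Hbb-bt fell: Hba-a1 measured 3.85, 2.66 and 4.98 at day 21, then 0.99, 1.17 and 1.34 at day 40, a fall of 2.67 (SE 0.53, adjusted p = 0.0018). Hbb-bt fell by 2.56 (SE 0.49), with its near-identical beta globin neighbour not separable. Hemgn, an erythroid nuclear protein also read in testis, rose by 3.86 (SE 0.58).

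Interferon genes gave 0 rises and 3 falls in 18 tested of 21 listed. The share of falls, 16.7 percent, was below the 33.8 percent of all genes. Rsad2, viperin, fell by 2.21 (SE 0.55). Immediate-early and stress genes, which respond to handling of tissue, gave 7 rises and 11 falls in 29 tested of 30, a share of falls of 37.9 percent, near that of all genes; 5 rose and 7 fell without replicate 2 of day 21. Egr2, Egr1 and Myc fell by 1.18, 0.69 and 0.98, and Btg2, Nr4a2 and Dusp1 rose by 1.16, 1.42 and 0.73, Btg2 by 0.77 on the mean over its probes.

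Among genes above background on all 6 arrays, the 12 largest falls ran from 2.13 to 3.37. Stc1, stanniocalcin 1, a secreted regulator of calcium and phosphate, measured -3.04, -2.76 and -3.99 at day 21, then -6.69, -6.38 and -6.86 at day 40, a fall of 3.37 (SE 0.30, adjusted p = 2.7e-06). Wif1, a secreted inhibitor of Wnt signals, fell by 2.26 (SE 0.25). Cdh16, a kidney cadherin, and Mmp7, a matrix protease, fell by 2.82 and 2.46. Bcan, Rsad2 and both globins belong to the 12 as well.

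Ffar2, Dcx and Cyp2j11, also among the 12, show the pattern of replicate 2. Dcx measured -6.13, -2.67 and -5.82 at day 21, then -6.99, -7.40 and -7.33 at day 40. Its fall of 2.36 became 1.26 without replicate 2 of day 21 and did not pass (adjusted p = 0.0797). Ffar2 fell by 2.42, or 1.32 without it, and Cyp2j11 by 2.13, or 1.07. Of all genes, 75 were above background on all day 21 arrays and on none at day 40, and 71 of them were called lower, against 33.8 percent of all genes. The 75 were picked for being dim at day 40, so that count follows from the choice and adds no support. Replicate 2 was the brightest day 21 array in 72 of the 75. The median bound on the fall was 3.22-fold over the 75, and 1.78-fold without that array. The 6 called genes with the largest bound are named here by that rule. In these 6 the fall was at least 7.22-fold for Adcy8, 6.12-fold for Gjb6, 6.01-fold for Cxcr2, 5.80-fold for Muc13, 5.28-fold for Mfsd7a and 5.21-fold for Prkg2. In the same order, the bounds were 3.47, 4.09, 2.36, 2.39, 2.57 and 1.91-fold without replicate 2 of day 21. The bound sets the mean of day 21 against the higher of the lowest measurable signal and the probe's own signal on each day 40 array. Prkg2, for example, measured -6.67, -2.48 and -6.96 at day 21. In the other direction Lilra5 was at least 2.15-fold and Atoh7 at least 1.78-fold higher at day 40, both above background on no day 21 array, although replicate 2 of day 21 (-5.88 in Lilra5) overlapped the day 40 arrays. Lilra5 lost its call on the mean over its probes (0.62, adjusted p = 0.365).

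**Figure D3:**
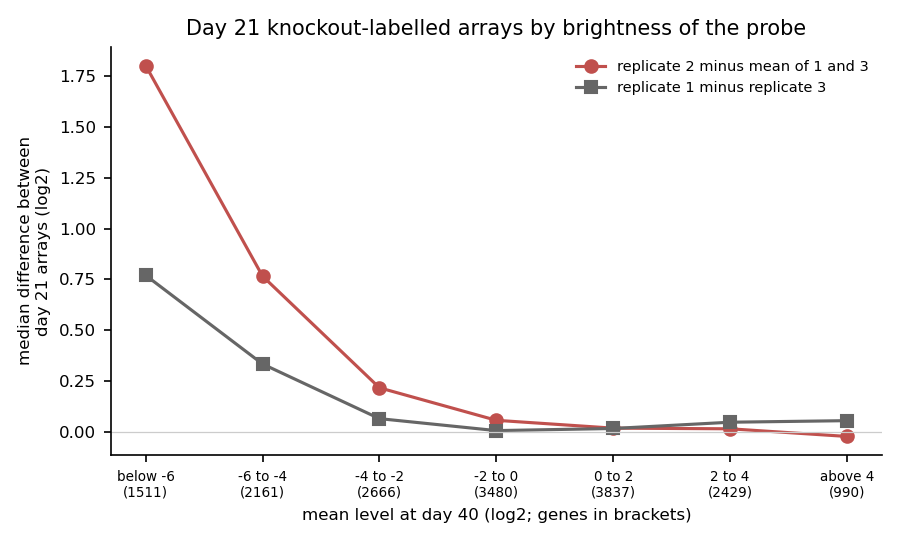
Genes grouped by mean level at day 40 on the knockout-labelled arrays (x axis, log2, number of genes in brackets), with the median difference between day 21 arrays (y axis, log2) in each group. Red points are replicate 2 minus the mean of replicates 1 and 3, which was 1.80 in the dimmest genes and -0.02 in the brightest; grey squares are replicate 1 minus replicate 3.

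The same interval in wild-type-labelled arrays gave 3127 genes called higher (18.3 percent) and 7582 lower (44.4 percent). Of the genes called higher in knockout-labelled arrays, 2306 were called higher in wild type too, which is 92.1 percent of the former and 73.7 percent of the latter. For genes called lower the overlap was 4879, or 84.6 and 64.3 percent. Genes called in opposite directions numbered 5. From day 21 to day 40 Plxnb2 rose in knockout-labelled arrays and fell in wild type, and Cxcl13, 4930594C11Rik, Il1bos and Shisal2b did the reverse. By limma's test of the difference between the changes, Cxcl13 and 4930594C11Rik passed (adjusted p = 0.0336 and 0.0425). Plxnb2, Il1bos and Shisal2b did not (adjusted p = 0.136, 0.145 and 0.141). These 5 were chosen after their values were seen. All 560 genes that rose at least 4-fold in knockout-labelled arrays were called higher in wild type. Of the 139 that fell as far, 44 were called lower there. Across genes the 2 changes correlated with r = 0.876 (rho = 0.77) over 17074 genes, which are not independent replicates.

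**Figure D4:**
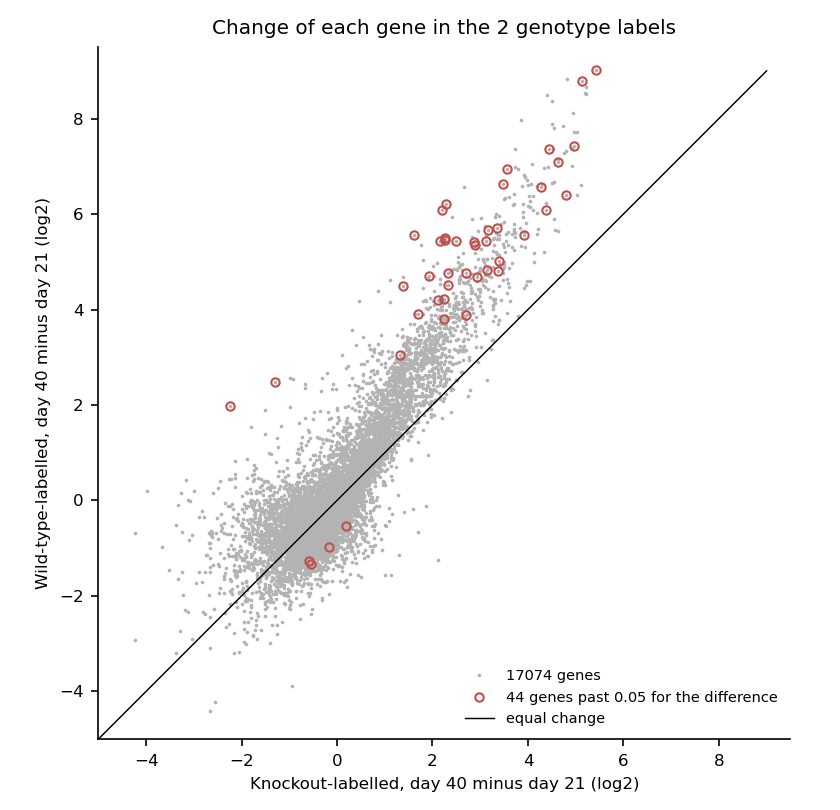
Change from day 21 to day 40 of 17074 genes in knockout-labelled (x axis) and wild-type-labelled arrays (y axis), both log2; circles mark the 44 genes whose changes differed between the labels, and the line marks equal change. The median ratio of the wild-type to the knockout change was 1.53 among genes that rose at least 2-fold in knockout-labelled arrays.

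Among the 1342 genes that rose at least 2-fold in knockout-labelled arrays, the median ratio of the wild-type change to the knockout change was 1.53. Replicate 3 of wild type at day 21 stood apart, with a mean level of the elongating spermatid list of -0.05 against 1.92 and 1.88 for the other wild-type arrays of that age. Without it the ratio was 1.27, without replicate 2 of knockout at day 21 it was 1.60, and without both 1.33. For the 768 genes that fell at least 2-fold the ratio was 0.67, and 0.98 without replicate 2 of knockout at day 21. Tested directly, the change differed between the labels in 44 genes, 4 (0.0234 percent) in which the knockout change was higher and 40 (0.234 percent) in which it was lower. The 4 were Zfp579, Rhox2a, Dbp and 6230400D17Rik, named after their values were seen. In 38 of the 40 the gene was called higher at day 40 in knockout-labelled arrays as well, and the remaining 2 were Cxcl13 and 4930594C11Rik. No member of the 30 lists passed this test. The count of 44 genes became 64 without replicate 3 of wild type, 110 without replicate 2 of knockout and 268 without both, and the count of probes, 79 over all arrays, ran from 4 (without replicate 1 or 3 of knockout at day 40, or replicate 1 of wild type at day 40) to 455 (without replicate 2 of wild type at day 21) when 1 array was left out. It was 0 when only the arrays compared were fitted.

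The gene with the smallest p, 4930412O13Rik, had levels of -4.28, -3.87 and -4.13 on the knockout-labelled day 21 arrays. At day 40 they were 0.48, 0.74 and 0.37. Its rise of 4.62 (SE 0.19) compared with 7.10 in wild type, a difference of -2.48 (SE 0.27, adjusted p = 0.00576). At day 40 the labels were close, at 0.53 and 0.44, and at day 21 apart, at -4.09 for knockout and -6.66 for wild type. Klk1b26, 1700008P02Rik, F5, Jup, B4galnt4, Gad2 and Pip5kl1 also had a higher day 21 mean in knockout than in wild type. Of the wild-type day 21 arrays, 1 had Gad2 and 2 had Pip5kl1 well above background; the other 6 genes were above it on all arrays of the 4 groups. All 8 passed without replicate 3 of wild type at day 21 (largest adjusted p = 0.0305), and 33 of the 44 genes did.

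After day 40 little passed. Between day 40 and day 60 in knockout-labelled arrays 1 probe was called, with 5663 at an unadjusted p below 0.05. It reads Clic6, an intracellular chloride channel protein named after its value was seen, which was 1.38 higher at day 60 (adjusted p = 0.0315). The genes that had risen at least 4-fold by day 40 differed by a median of 0.60 from day 40 to day 60, without passing. The elongating spermatid list had mean levels of 2.98, 2.22 and 3.14 at day 21, 4.99, 5.20 and 5.09 at day 40 and 5.35, 5.45 and 5.50 at day 60. Both of these steps share the day 40 arrays.

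**Figure D5:**
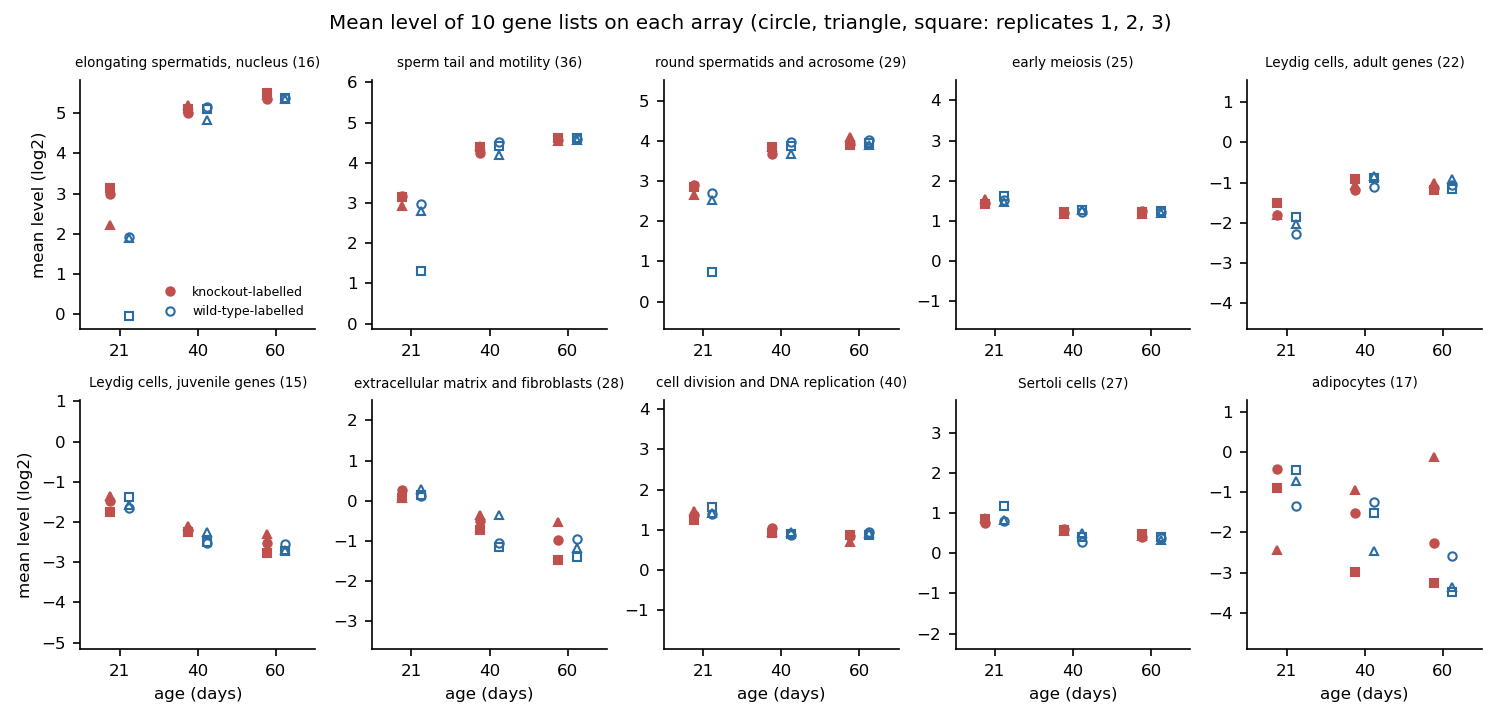
Mean level (y axis, log2) of 10 gene lists on each array at days 21, 40 and 60 (x axis), knockout-labelled in red and wild-type-labelled in blue, with symbols for replicates and the same span in every panel. Spermatid lists are higher at day 40 than at day 21 on all knockout-labelled arrays, the early meiosis list is slightly lower, and the adipocyte list varies most within an age.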

How the data were processed

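Total RNA of 18 testis samples was hybridised to 1-colour (Cy3) Agilent arrays. Per the file headers, the deposited values are the processed signal of Feature Extraction 10.7.3.1, a linear intensity; the submitters' processing notes name version 9.1. Control spots and outlier spots (72 to 137 per array) were left out. The deposited intensity was turned to log2, the 75th percentile of the spots that were not controls was subtracted, and spots of a probe were averaged. A probe was tested if, in at least 1 group, every array had it well above background (35641 of 41174). The small number of arrays limits the precision.

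Accessions were matched to RefSeq symbols (GRCm38.p6 table), which named 25057 tested probes. A gene was read on its brightest tested probe, and 6116 genes had several.

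limma 3.58.1 (R 4.3.3; lmFit and eBayes, two-sided) was fitted to 6 group means over 18 arrays, with Benjamini-Hochberg adjustment over all tested probes, and was tested on simulated data. Genes were named by rule: Plin1, the 12 largest rises and falls above background on all 6 arrays, up to 6 bounds each way, up to 4 members of each list in each direction by p, any member needed to account for a list, retrocopy pairs, and the 8 smallest p of the test between intervals. The comparison and the gene lists were chosen with earlier results of these data known. Alternatives covered background correction, scaling, filters, blocks, weights and left-out arrays. The planned normexp correction took the median spot signal in place of the mean signal. Some genes that the rule names are not reported here.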

Additional observations from a re-analysis of the deposited data

Results flagged for a closer look

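The change from day 21 to day 40 differed between the genotype labels for 8 named genes, by limma's test of the difference itself. The knockout change minus the wild-type change was -2.48 for 4930412O13Rik, -2.29 for Klk1b26, -2.45 for 1700008P02Rik, -1.74 for F5, -2.44 for Jup, -2.19 for B4galnt4, -2.36 for Gad2 and -3.20 for Pip5kl1, with adjusted p from 0.00576 to 0.0289. All 8 rose in both labels. The values ran from -1.58 to -2.93 without replicate 3 of wild type at day 21, from -1.63 to -2.80 without replicate 2 of knockout at day 21, and from -1.48 to -2.59 without both. All 8 passed in each of these 3 fits. None passed when only the arrays compared were fitted (smallest adjusted p = 0.129) or with the normexp correction as planned (0.429). The number that passed was 1 without replicate 1 or replicate 3 of knockout or of wild type at day 40, 1 with normexp and limited local background, and 4 with quantile normalization. All 8 differences stayed below 0 in each of these fits. In all 8 the day 21 mean was higher in knockout-labelled than in wild-type-labelled arrays, for example -4.50 against -7.26 in Pip5kl1, whose day 40 means were -2.24 and -1.80. Pip5kl1 was well above background on 2 and Gad2 on 1 of the 3 wild-type day 21 arrays. The median difference between the intervals was -1.27 over the elongating spermatid list, -1.13 over the round spermatid list and -0.38 over the sperm tail list, with no member passing. The mean level of the elongating spermatid list at day 21 was 2.98, 2.22 and 3.14 on the knockout-labelled arrays and 1.92, 1.88 and -0.05 on the wild-type-labelled arrays. The part of this in the 8 differences was not tested. At day 21 the wild-type-labelled arrays shared a slide with replicate 1 of knockout, and replicates 2 and 3 of knockout lay on another. At day 40 the knockout-labelled arrays shared a slide with replicate 3 of wild type, and replicates 1 and 2 of wild type lay on another. Slide and genotype label thus cannot be fully told apart in these differences.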

How the results depend on the processing

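Several alternatives were chosen after seeing the data: normexp with limited local background and the fit without both arrays that stand apart among them. Of 199 named genes that passed, 187 passed in the same direction with normexp and limited local background, 186 with quantile normalization, 164 with median scaling, 194 with a replicate block, 168 with only the arrays compared 178 without replicate 2 of knockout at day 21, and 82 with normexp as planned, where 3 turned and the others no longer passed. The normexp correction as planned called 2631 probes between days 21 and 40 in knockout-labelled arrays, 1934 higher and 697 lower, 7396 in wild type, 0 between days 40 and 60, and 0 for the difference between the intervals. Up to 29 spots with a very bright local background set its fit on some arrays, where the 5th percentile of the corrected signal reached 1728; with that background limited, 16069 probes were called. The planned correction turned Atoh7 to -0.76, Ehhadh to -0.36 and Lilra5 to -0.92. The mean over the probes of a gene turned Acta2 to -0.20, Col5a1 to -0.13, Gk to -0.11 and Igf1 to -0.12.

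For the knockout interval, median scaling called 11479 probes with 6385 lower, only the arrays compared gave 8858 lower, and array weights, which did not fully converge, gave 6911 higher. Leaving out 1 array gave 12727 to 19147 probes called, 3383 to 4212 higher and 8648 to 15431 lower, and 17520 to 22939 in wild type. Between days 40 and 60 the count of 1 became 2 with limited normexp, 15 with quantile normalization, 0 with median scaling, with no filter on dim probes or with the replicate block, 9 with probes above background on all arrays, 7820 with slide as a random block, 5559 with array weights and about 1.1e+02 with trend and robust variances. Leaving out 1 array gave 0 to 27. The 79 probes that differed between the intervals became 12 with limited normexp, 33 with quantile normalization, 47 with no filter, 26 with probes above background on all arrays, 43 with the replicate block, 2116 with slide as a random block, 0 with only the arrays compared, 460 with array weights, 153 with trend and robust variances and 470 without both arrays that stand apart. Leaving out 1 array gave 4 to 455. The fit with slide as a random block estimated a correlation of -0.226 between arrays of the same slide. The cause of these other changes was not tested. Same-numbered arrays of days 21 and 40 share only a number, with correlations of their deviations of 0.0139, -0.0154 and -0.186; the replicate block called 17005 probes in the knockout interval, 4164 higher and 12841 lower.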
